A study of Mus musculus with 6 samples.

Results

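The ATP-binding cassette (ABC) transporter genes of TuBo cells were taken as every gene of the counts whose symbol was Abc followed by a letter from a to g, a number and at most 1 further letter. The rule took 50 of 21960 genes, of which 38 had reads and 12 had none in any library. Reads were sufficient for a test of 21 members, and 11 of these were higher and 6 lower in cells that overexpressed the adaptor protein p140Cap than in mock cells. Differences were widespread, since 71.1% of the 11800 genes tested passed, with 35.2% higher and 35.9% lower. Among the members that pump lipids and drugs, Abca1 rose 4.78-fold and Abcc10 rose 1.85-fold, while Abcg2 rose 1.32-fold. Among the members that do not transport, Abce1 fell 2.65-fold and Abcf2 fell 2.08-fold. The peroxisomal gene Abcd3, among the most abundant members per length, did not pass the test.

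ABC transporters use the energy of ATP bound by a pair of cassettes to move substrates through a membrane. Members of the family export cholesterol and phospholipids, carry fatty acids into peroxisomes, serve mitochondrial iron handling, or expel foreign compounds, and the drug pumps among them are known for multidrug resistance of tumor cells. ABCE and ABCF proteins carry the cassettes without a membrane part and act on ribosomes and translation instead.

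TuBo is a line grown from a mammary carcinoma of a BALB/c mouse that carries the activated rat HER2 (NeuT) oncogene under the MMTV promoter, so both groups share that transgene. In the p140Cap group (3 libraries), p140Cap cDNA had been delivered by a pBabe-puro retrovirus, with puromycin selection, and the study's methods describe a pool of clones grown from single cells. The controls (3 libraries) are called mock in one label and wild type in another, and one label speaks of mice where the others name cell lines. Whether the replicates came from separate cultures is unstated, so p-values measure the spread between these libraries, which may be technical.

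Mock libraries held between 33058719 and 75506562 reads and p140Cap libraries between 13770385 and 15364850. Srcin1, which encodes p140Cap, rose from 15.0 ± 1.96 to 2342.8 ± 153 CPM (reads per 1000000 library reads; mean ± SD, n = 3), and its log2 fold change was 7.29 by edgeR's quasi-likelihood test (adjusted p = 7.05e-19, SE 0.09). The summed level of 6 mammary epithelial markers lay between 5245.4 and 5569.6 CPM in mock and between 6183.5 and 6339.4 CPM in p140Cap libraries, with Krt19 near 0. Of the leukocyte markers, Ptprc, Cd3e and Adgre1 were at 0 in every library, and Cd68 carried the summed 2.04 to 2.34 CPM of mock and 3.23 to 4.09 CPM of p140Cap libraries. Of the fibroblast markers, Col1a2, Dcn and Lum were at 0, and the list summed to between 9.93 and 10.5 CPM in mock and between 11.3 and 14.1 CPM in p140Cap libraries. Of the endothelial markers Kdr was at 0, and the list summed to between 0.15 and 0.427 CPM in mock and between 0.477 and 0.734 CPM in p140Cap libraries. Adipocyte markers summed to at most 0.183 CPM in mock and 0.588 CPM in p140Cap libraries, and myoepithelial markers to at most 0.48 and 0.593 CPM. In bulk RNA, fewer cells expressing a gene and less of its RNA per cell cannot be told apart.

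The first question was which members were expressed at all. RNA for classical P-glycoprotein was close to absent: Abcb1a, one of the mouse genes for this multidrug pump, had no reads, and Abcb1b, the other, had 1 read in each group. Also without reads were Abcb5, a further drug-efflux member, and the lipid and sterol genes Abca13, Abca6, Abca8a, Abcg1 and Abcg5. Abcc8, the sulfonylurea receptor of potassium channels in pancreatic beta cells, and Abca15, Abca16, Abcc6 and Abcg3 had none either. At these depths a gene with no reads could still have up to 3 reads per library, which is a counting limit only.

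A further 17 members had reads but too few for the test. Among drug-efflux genes, Abcc5, an exporter of cyclic nucleotides and nucleotide analogs, had 17, 3 and 2 reads in mock replicates 1 to 3 and 0 in every p140Cap library, so most of its 22 reads came from mock replicate 1. Abcc2, an apical exporter of conjugated organic anions, had 13 and 4 reads, a ratio of CPM of 0.944 (mock over p140Cap, 95% exact interval 0.292 to 3.98). Abcc3 had 8 and 1 reads, and Abcc4 had 1 and 0. Drug-efflux reads in TuBo cells therefore came almost wholly from 3 genes, Abcc1, Abcc10 and Abcg2.

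Among the lipid genes short of reads, Abca12, the glucosylceramide transporter of the skin barrier, had 33 reads in mock and 3 in p140Cap libraries (ratio 3.20, 95% exact interval 1.00 to 16.3). Abca5 had 29 and 12 reads (ratio 0.702, 0.348 to 1.51), and Abcb11, the bile salt export pump, had 7 and 4 (ratio 0.508, 0.129 to 2.37). Abca8b had 2 and 6 reads (ratio 0.0969, 0.00956 to 0.542), and Abcb4, which places phosphatidylcholine in bile, had 5 and 3. Abca9 and Abcg8 had 1 read each, in mock. Abcc9, a channel regulator like Abcc8, had 8 reads in mock, all in replicate 1, and 9 in p140Cap libraries (ratio 0.258, 0.0867 to 0.754). Abcc12, whose substrates are uncertain, had 56 and 9 reads (ratio 1.81, 0.888 to 4.16), Abca17 had 3 and 2, and Abca14 and the peroxisomal Abcd2 had 1 and 0.

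**Figure D1:**
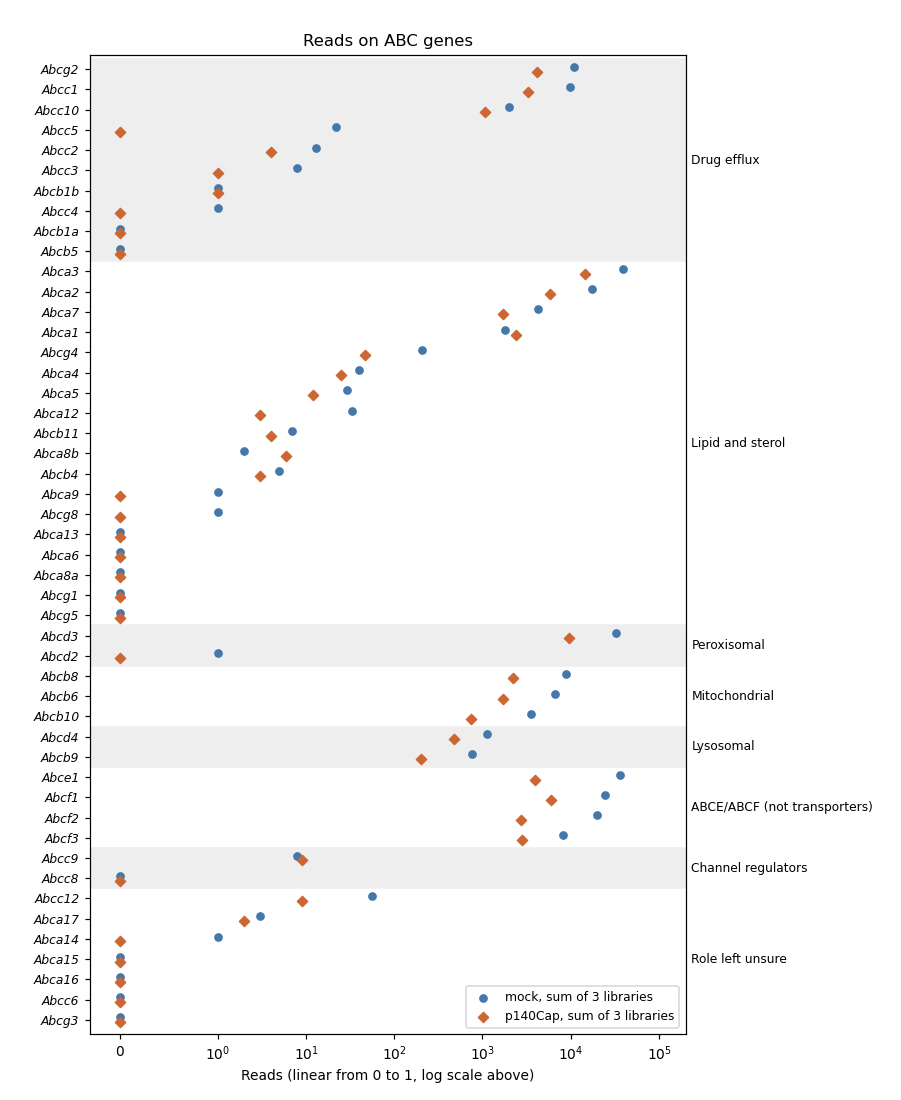
Reads on 48 of the 50 ABC genes (x axis, linear from 0 to 1 and logarithmic above) summed over the 3 mock (circles) and 3 p140Cap libraries (diamonds), with genes grouped by role. The 12 genes at 0 in both groups include Abcb1a and Abcg1, and mock sums are larger for most genes, in libraries that were deeper.

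The second question was which members differed between mock and p140Cap cells. Of the 21 members tested, 17 passed an adjusted p of 0.05 (81.0%), in a comparison where 71.1% of all 11800 genes tested did. The 11 higher members were 52.4% of those tested, against 35.2% higher among all genes, and the 6 lower members were 28.6%, against 35.9%. Past 1 log2 unit were Abca1, Abca4, Abce1 and Abcf2, which is 4 of 21, where 9.97% of all genes were. CPM values did not overlap between the groups for 17 members, and 73.4% of all genes were apart in the same way. The median log2 fold change was 0.21 for the members, or 0.023 over all 38 with reads, 0.12 without Abca4 and between 0.10 and 0.13 with any of the 6 libraries left out, and 0.00 for all genes. Abca4 passed the filter on low reads through its p140Cap libraries alone, so its place among the members tested depends on that group being high.

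**Figure D2:**
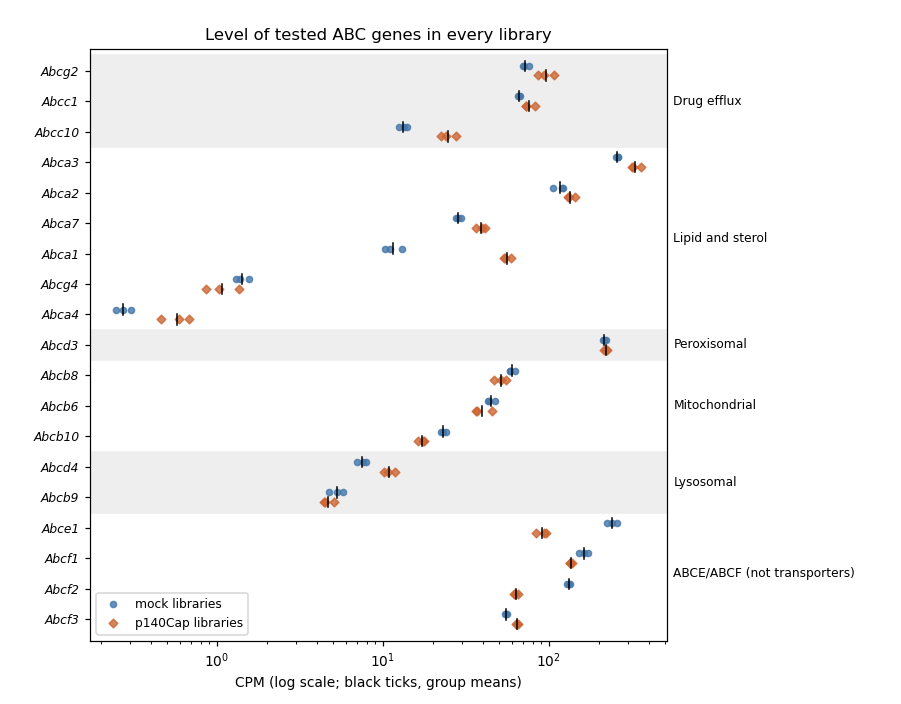
Level in CPM (x axis, log scale) of 19 of the 21 tested ABC genes in each mock (circles) and p140Cap library (diamonds), with black ticks at group means. Abca1 stands clear in its rise and Abce1 and Abcf2 in their fall, while Abcd3 has overlapping groups near 215 and 220 CPM.

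Per kilobase of exon, the most abundant member of mock cells was Abce1 at 38.3 ± 2.74 CPM per kb, followed by Abcf1 at 34.6, Abcd3 at 30.9, Abca3 at 24.6 and Abcf2 at 23.5. Mock libraries of Abce1 and Abcf1 overlapped, while the other neighbors in this order did not. In p140Cap cells the order began with Abca3 at 31.8 and Abcd3 at 31.6 CPM per kb, whose libraries overlapped, then Abcf1 at 29.0, Abca2 at 14.6 and Abce1 at 14.5. Abce1 thus lost the first place, and its libraries overlapped those of Abca2. With the longest transcript taken as the length, Abcd3 came before Abcf1 in mock cells, at 56.5 against 48.7 CPM per kb without overlap. With that length Abcd3 also came before Abca3 in p140Cap cells, at 57.8 against 46.3 CPM per kb, and Abce1, at 23.9, lay above Abca2, at 15.3.

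Lipid and sterol transporters made up 18 members, of which 6 were tested. Of these, 5 were higher, where 35.2% of all genes tested were, and 1 did not pass. Of the 5, Abca4 was tested only because its p140Cap libraries passed the filter on low reads, and its call was not kept under DESeq2. Abca1, which loads cholesterol and phospholipid onto apolipoprotein A-I, lies on chromosome 4 at 53030789 to 53159988 (GRCm38, minus strand). The bases before its gene are shown because it had the largest change among the members tested, with a GC box (GGGCGG) and an E-box (CACGTG) in capitals. The stretch is chr4:53159989-53160145 on the minus strand, 157 bases from RefSeq on GRCm38.p6:
Abca1: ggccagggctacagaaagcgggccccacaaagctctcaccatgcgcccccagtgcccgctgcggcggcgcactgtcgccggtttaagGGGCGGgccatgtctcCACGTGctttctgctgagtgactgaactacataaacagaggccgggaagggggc
The GC box began 163 and the E-box 147 bases before the start listed for the promoter. Nearer that start, a further GC box ran across the edge of the annotated gene and a TATA box (TATAAA, in 12.4% of windows) lay inside it, and neither is marked. In windows of 250 bases before 32851 mouse promoter starts, 32.7% held a GC box and 6.02% an E-box on either strand. A DR4 repeat, the type read by liver X receptors, was searched only as exact letters (a pair of AGGTCA with 4 bases between). These letters were not in this window, and 0.015% of all windows held them. Looser forms of the repeat were not searched, so whether this window holds one was not tested.

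Reads on Abca1 were 1005, 438 and 342 in mock replicates 1 to 3, and 831, 864 and 733 in p140Cap replicates 1 to 3. Its level was 13.1, 11.0 and 10.3 CPM in mock and 54.8, 58.9 and 53.8 CPM in p140Cap libraries. Every p140Cap library stood far above every mock library, and 2 mock libraries had fewer reads than any p140Cap library although each was more than 2 times as deep. By edgeR's quasi-likelihood test, adjusted after Benjamini and Hochberg, Abca1 rose by 2.26 on the log2 scale (adjusted p = 1.06e-12, SE 0.08). It stayed between 2.18 and 2.39 in 13 alternative analyses. Per length, Abca1 went from 0.934 to 4.55 CPM per kb, so it remained below Abca3 in both groups.

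Abca3, the phospholipid transporter of lamellar bodies, had 19892, 10044 and 8712 reads in mock and 4893, 5296 and 4316 in p140Cap libraries. These correspond to 260, 253 and 262 CPM and to 322, 361 and 317 CPM. All p140Cap libraries were higher, by 0.37 on the log2 scale (adjusted p = 9.84e-06, SE 0.05, edgeR). Abca2, a relative known from endolysosomes of the brain, had 9291, 4202 and 4079 reads in mock and 1988, 2094 and 1807 in p140Cap libraries, or 121, 106 and 122 CPM against 131, 143 and 133 CPM. The groups were apart by a smaller step, 0.22 on the log2 scale (adjusted p = 0.00361, SE 0.06).

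Abca7, a phospholipid transporter studied in phagocytosis and Alzheimer's disease, rose from 28.5 ± 1.08 to 39.2 ± 2.37 CPM (log2 fold change 0.46, SE 0.06, adjusted p = 4.52e-06, edgeR). Abca4, which clears retinoids from photoreceptor membranes, was near the limit of detection, with 19, 12 and 9 reads in mock and 7, 10 and 8 in p140Cap libraries. Its levels of 0.248, 0.302 and 0.27 CPM against 0.461, 0.681 and 0.588 CPM did not overlap, and differed by 1.09 on the log2 scale (adjusted p = 0.0146, SE 0.37). That call was lost under DESeq2 and without p140Cap replicate 2, where the adjusted p reached 0.0874. Abcg4, an exporter of sterol to lipoproteins, had 1.42 ± 0.13 CPM in mock and 1.08 ± 0.257 CPM in p140Cap libraries, which overlapped (log2 fold change -0.37, SE 0.23, adjusted p = 0.164).

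Drug-efflux genes made up 10 members, and the 3 tested were all higher in p140Cap cells, where 35.2% of all genes tested were. Abcc10, which exports taxanes and other lipophilic drugs, lies on chromosome 17 at 46303220 to 46328031 (GRCm38, minus strand). The 200 bases before it are shown because it changed most among the drug pumps tested. The antioxidant response core TGACNNNGC, the ETS core CCGGAAG and a GC box are in capitals, each on either strand. The stretch is chr17:46328032-46328231, minus strand, from RefSeq on GRCm38.p6:
Abcc10: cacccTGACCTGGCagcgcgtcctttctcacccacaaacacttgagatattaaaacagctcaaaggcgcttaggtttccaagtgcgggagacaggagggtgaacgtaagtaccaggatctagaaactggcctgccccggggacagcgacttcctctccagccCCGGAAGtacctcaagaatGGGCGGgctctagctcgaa
The antioxidant core began 203, the ETS core 46 and the GC box 27 bases before the outer of 2 listed starts, and 10.2% of all promoter windows held the first of these and 6.91% the second.

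Reads on Abcc10 were 1068, 497 and 446 in mock and 342, 403 and 328 in p140Cap libraries. This gave 14.0, 12.5 and 13.4 CPM in mock and 22.5, 27.5 and 24.1 CPM in p140Cap cells. The groups were well apart, by 0.89 on the log2 scale (adjusted p = 4.47e-08, SE 0.08, edgeR). Abcg2, the breast cancer resistance protein, which also concentrates compounds in milk, had 5453, 3040 and 2319 reads in mock and 1417, 1269 and 1465 in p140Cap libraries. Its levels were 71.3, 76.4 and 69.6 CPM in mock and 93.4, 86.4 and 108 CPM in p140Cap libraries. The highest mock library was below the lowest p140Cap library, and Abcg2 rose by 0.40 on the log2 scale (adjusted p = 4.77e-05, SE 0.07).

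Abcc1, the multidrug resistance-associated protein that exports glutathione conjugates, had 5149, 2619 and 2171 reads in mock and 1110, 1209 and 997 in p140Cap libraries. Its levels were 67.3, 65.8 and 65.2 CPM in mock and 73.2, 82.4 and 73.2 CPM in p140Cap libraries, a small rise without overlap (log2 fold change 0.21, SE 0.05, adjusted p = 0.00294, edgeR). Per length, Abcg2 was the highest drug pump in both groups, at 7.61 CPM per kb in mock and 10.1 CPM per kb in p140Cap cells, before Abcc1 at 4.25 and 4.91 and Abcc10 at 1.9 and 3.53. Abcg2 took 47.7 ± 1.47% of the drug-efflux CPM in mock and 48.6 ± 4.28% in p140Cap libraries, a difference smaller than the spread between libraries.

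Transporters of the peroxisomal membrane were 3 members, of which 2 could be tested and 1 was higher, where 35.2% of all genes tested were. Abcd3, the major protein of the peroxisomal membrane, had 16419, 8758 and 7011 reads in mock and 3350, 3147 and 3069 in p140Cap libraries. Its levels of 215, 220 and 211 CPM against 221, 214 and 225 CPM overlapped, and the log2 fold change of 0.03 (SE 0.05) did not pass the test (adjusted p = 0.523, edgeR). Over 13 alternatives its log2 fold change lay between 0.00 and 0.05.

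The drug-efflux, lipid and peroxisomal members were then set side by side. Of those tested, 3 of 3 drug-efflux genes, 5 of 6 lipid and sterol genes and 1 of 2 peroxisomal genes were higher in p140Cap cells, where 35.2% of all genes tested were, and the others did not pass in either direction. The median log2 fold change was 0.40 over 3 tested drug-efflux genes and 0.42 over 6 lipid and sterol genes, beside 0.00 over all genes. With no filter on low reads, it was 0.11 over 8 drug-efflux genes and 0.43 over 13 lipid and sterol genes. Without Abca4, 4 of 5 lipid and sterol genes were higher, with a median of 0.37. Summed CPM counts reads and not molecules, so the sums follow the most abundant and longest members. Drug-efflux genes together had 153, 155 and 148 CPM in mock and 189, 196 and 205 CPM in p140Cap libraries, which is 1.29 times the mock mean. Lipid and sterol genes had 425, 399 and 426 CPM in mock and 547, 606 and 546 CPM in p140Cap libraries, 1.36 times. In both sums the groups did not overlap. No test compares the sums, since the members of a list differ in number and level.

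**Figure D3:**
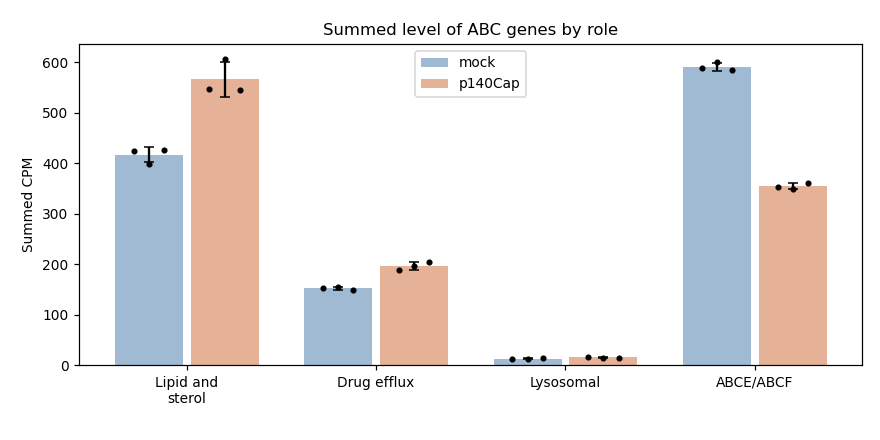
Summed CPM (y axis, from 0) of the ABC genes of 4 roles, with bars at group means, error bars of 1 SD and points for the 3 libraries of each group. Lipid and sterol and drug-efflux sums were higher in p140Cap cells, and the ABCE/ABCF sum was lower, at 591 CPM in mock and 355 CPM in p140Cap cells.

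All 4 mitochondrial members had log2 fold changes below 0, and 3 of them passed as lower, where 35.9% of all genes tested did. Abcb10, needed for heme synthesis in erythroid cells, fell from 23.2 ± 0.856 to 17.2 ± 0.767 CPM (log2 fold change -0.44, SE 0.07, adjusted p = 2.79e-05, edgeR). Abcb8 fell from 59.8 ± 2.48 to 51.3 ± 4.36 CPM (-0.22, SE 0.06, adjusted p = 0.00433). Abcb6, a porphyrin transporter, had 44.6 ± 2.2 CPM in mock and 39.7 ± 4.97 CPM in p140Cap libraries with overlap (-0.17, SE 0.07, adjusted p = 0.0507), and it passed in 7 of 13 alternatives.

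Of the lysosomal pair, Abcd4, which takes part in the release of vitamin B12 from lysosomes, had 585, 278 and 263 reads in mock and 181, 157 and 137 in p140Cap libraries. Its levels went from 7.64, 6.99 and 7.9 CPM to 11.9, 10.7 and 10.1 CPM without overlap, or by 0.54 on the log2 scale (adjusted p = 8.04e-05, SE 0.09, edgeR). Abcb9, a lysosomal peptide transporter, had 5.28 ± 0.513 and 4.66 ± 0.363 CPM and did not pass (-0.16, SE 0.13, adjusted p = 0.275).

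**Figure D4:**
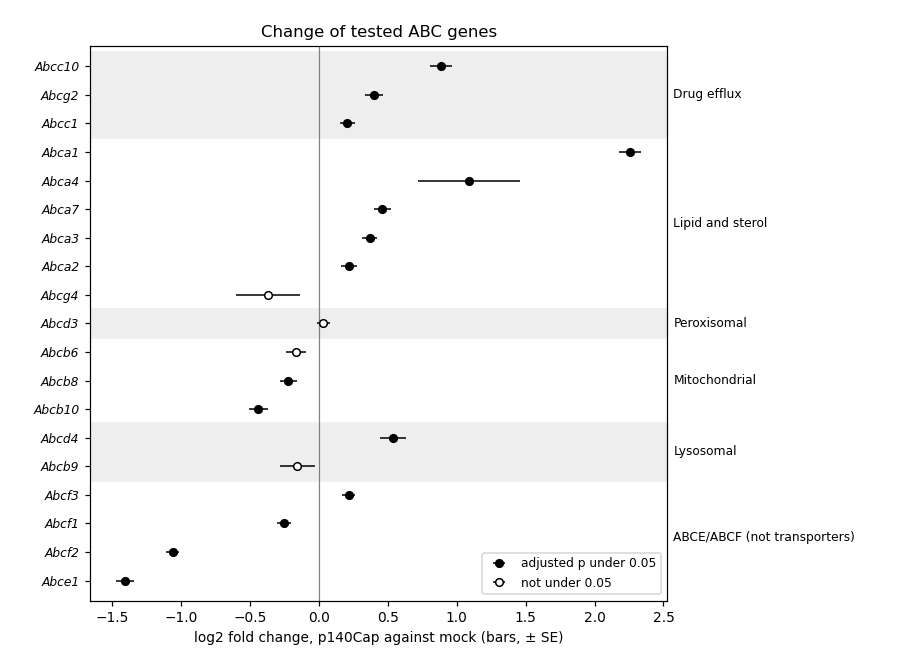
Log2 fold change, p140Cap against mock, of 19 of the 21 tested ABC genes (x axis, bars of 1 SE), grouped by role, with filled points for an adjusted p under 0.05. The lipid and drug-efflux genes lie right of 0 apart from Abcg4, Abcd3 lies at 0.03, the mitochondrial genes lie left of 0, and Abca1 at 2.26 and Abce1 at -1.40 mark the ends.

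ABCE and ABCF genes, which act in translation, carried the largest falls among the members tested. Abce1 splits ribosomes into subunits after termination, and lies on chromosome 8 at 79683442 to 79711740 (GRCm38, minus strand). Abcf2, a cytosolic member of less settled function, lies on chromosome 5 at 24565341 to 24577467 (minus strand). Their promoters are shown because these 2 fell most among the members tested, each as 200 bases from RefSeq on GRCm38.p6, minus strand. Capitals mark a CCAAT box (CCAAT) and a CRE (TGACGTCA) in Abce1, at chr8:79711741-79711940, and a GC box in Abcf2, at chr5:24577468-24577667:
Abce1: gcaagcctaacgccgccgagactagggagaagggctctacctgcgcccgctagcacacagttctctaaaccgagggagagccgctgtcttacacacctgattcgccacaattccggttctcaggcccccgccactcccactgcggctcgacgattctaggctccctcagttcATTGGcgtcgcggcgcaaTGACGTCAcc
Abcf2: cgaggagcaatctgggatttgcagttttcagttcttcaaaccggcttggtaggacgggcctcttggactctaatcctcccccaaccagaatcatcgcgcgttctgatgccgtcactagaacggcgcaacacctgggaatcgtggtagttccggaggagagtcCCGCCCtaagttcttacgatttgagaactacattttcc
The CCAAT box, here on the opposite strand, began 28 and the CRE 10 bases before the start listed for Abce1, and 33.9% and 1.55% of all promoter windows held these letters. The GC box of Abcf2, also on the opposite strand, began 38 bases before the outer of 2 listed starts and 159 bases before the other, whose window held a further GC box and a CCAAT box. A motif match describes these letters only and is not a measured site of binding.

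Reads on Abce1 were 18480, 10245 and 7434 in mock and 1414, 1226 and 1310 in p140Cap libraries. Its levels were 241, 258 and 223 CPM in mock and 93.2, 83.5 and 96.2 CPM in p140Cap cells. Every p140Cap library was below every mock library by a wide margin, and the gene was 62.2% lower (log2 fold change -1.40, SE 0.06, adjusted p = 1.2e-11, edgeR). Abcf2 had 9886, 5312 and 4441 reads in mock and 942, 914 and 895 in p140Cap libraries. Its levels fell from 129, 134 and 133 CPM to 62.1, 62.3 and 65.7 CPM, with little spread inside either group (log2 fold change -1.06, SE 0.05, adjusted p = 1.68e-11).

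Abcf1, which promotes translation initiation, had 12436, 6072 and 5720 reads in mock and 2043, 2039 and 1832 in p140Cap libraries. Its levels of 163, 153 and 172 CPM went to 135, 139 and 135 CPM, a smaller fall (log2 fold change -0.25, SE 0.05, adjusted p = 0.000302, edgeR). Abcf3 moved the other way, from 55.4 ± 0.73 to 64.4 ± 0.557 CPM (0.22, SE 0.05, adjusted p = 0.000759). The share of ABC reads on these 4 genes went from 36.2% in mock to 22.7% in p140Cap cells. Summed over all 50 members, the family had 1632.0 ± 4.08 CPM in mock and 1565.3 ± 36.5 CPM in p140Cap libraries. Without ABCE and ABCF genes it had 1041.4 ± 7.33 and 1210.5 ± 39.4 CPM, so the direction of the family sum depends on whether these genes are counted.

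Genes that control or work beside the transporters were taken from 4 lists. Their counts are read against the 71.1% of all genes that passed, 35.2% higher and 35.9% lower. Of 16 transcriptional regulators, 10 were tested, 5 were higher and 1 was lower, so that 60.0% passed. Ppard, a lipid-sensing nuclear receptor, rose from 28.7 ± 2.91 to 70.7 ± 5.5 CPM (log2 fold change 1.30, SE 0.07, adjusted p = 1.29e-10, edgeR). Nr1h3, the liver X receptor alpha that activates Abca1 in many tissues, fell from 1.86 ± 0.268 to 0.834 ± 0.475 CPM (-1.13, SE 0.29, adjusted p = 0.00246, edgeR). Its reads were 149, 62 and 69 in mock and 18, 15 and 4 in p140Cap libraries. Nr1h3 passed the filter on low reads through its mock libraries, since p140Cap replicate 3, at 0.294 CPM, was under the limit of 0.413 CPM. Hif1a rose by 0.65 (adjusted p = 1.88e-09) and Nr1h2, the liver X receptor beta, by 0.43. Nr1h2 was by far the more abundant of these 2 receptors, at 95.6 ± 7.09 CPM in mock and 129 ± 10.8 CPM in p140Cap libraries. Nfe2l2, the regulator of the antioxidant response, did not pass (-0.05, adjusted p = 0.39).

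Of 14 peroxisomal oxidation genes, 13 were tested, 9 were higher and 2 were lower (69.2% and 15.4%, against 35.2% and 35.9% of all genes). Ehhadh, the bifunctional enzyme of peroxisomal beta-oxidation, had 410, 222 and 196 reads in mock and 0, 0 and 4 in p140Cap libraries, so its reads all but vanished (log2 fold change -5.86, SE 0.37, adjusted p = 7.06e-10, edgeR). It passed the filter on low reads through its mock libraries alone, so its place among the genes tested depends on that group being high. Crot rose by 0.67 (adjusted p = 8.18e-09). Of the transporters of the same organelle, 1 of 2 tested was higher.

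Of 18 detoxification genes, 15 were tested and 7 were higher and 7 lower (46.7% each, against 35.2% and 35.9% of all genes). The glutathione transferase Gsto1 fell by 1.67 (adjusted p = 1.12e-12, edgeR), while Gstm1 rose by 1.18 and Mgst2 by 1.14. Of 10 sterol handling genes, all 7 tested passed, 5 higher and 2 lower (71.4% and 28.6%). Apoe, a lipoprotein component that accepts exported cholesterol, fell from 4.84 to 2.00 CPM (-1.26, SE 0.17, adjusted p = 5.59e-06), against the direction of Abca1. Mylip, which degrades the LDL receptor, rose by 0.66 and Npc2 by 0.48. Outside the naming rule, the peptide transporters for antigen presentation Tap1 and Tap2 rose by 1.37 (adjusted p = 5.72e-10) and 0.96 (adjusted p = 2.5e-08), and Cftr had no reads.

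**Figure D5:**
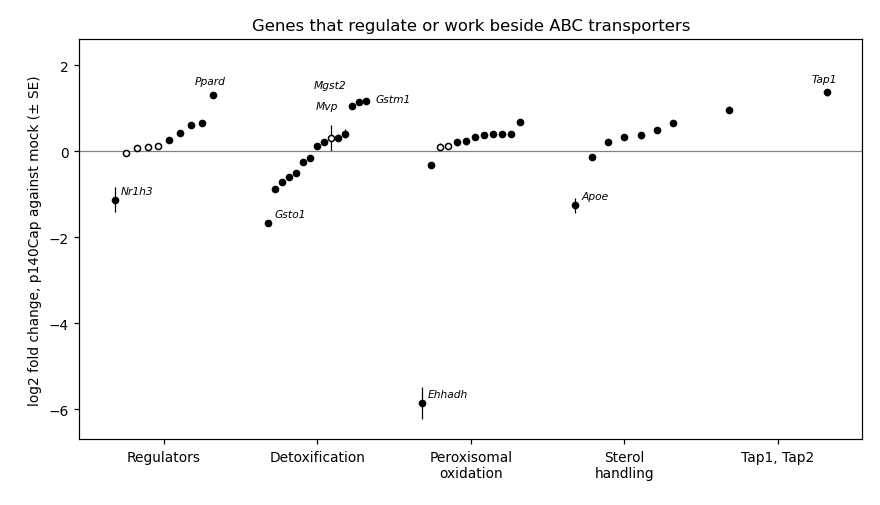
Log2 fold change, p140Cap against mock, with bars of 1 SE, of tested genes in 4 related lists and of Tap1 and Tap2, with filled points for an adjusted p under 0.05 and names at 1 log2 unit or more. Ehhadh at -5.86 lies far below the other genes, and most peroxisomal oxidation genes lie a little above 0.

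Some members share exon bases with a gene on the opposite strand, and although the study's methods describe a stranded library kit, no source used here says whether the counting used strand. Anapc10, opposite Abce1, had 13.7 ± 0.704 CPM in mock and 11.0 ± 1.52 CPM in p140Cap libraries, far below Abce1 itself. Chpf2, opposite Abcf2, had 37.5 ± 2.61 and 40.2 ± 3.28 CPM and did not pass the test (log2 fold change 0.10, adjusted p = 0.186, edgeR). Zfand2b, opposite Abcb6, had 25.7 ± 1.52 and 29.1 ± 2.45 CPM. Dlk2, opposite Abcc10, was near 0.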

How the data were processed

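RNA-Seq counts of 3 mock and 3 p140Cap libraries of TuBo cells were used. The authors deposited counts, that is, whole numbers of reads per gene for each library, not normalized and with replicates kept apart. The submitters' processing notes name STAR 2.5, RSEM 0.1.1 and mm10 without saying what each was used for, and no source used here gives the annotation release. The labels give poly(A) selection.

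Counts were analysed in R 4.3.3 with edgeR 4.0.16: TMM factors, filterByExpr by group, and the quasi-likelihood test with condition as the sole term over 11800 genes, with p-values adjusted after Benjamini and Hochberg at a 0.05 threshold. CPM used TMM-adjusted library sizes. SE values follow from the test, as log2 fold change over the root of F. CPM per kb was divided by the union of exons of each gene in GENCODE M39, whose GRCm39 coordinates are not printed. Ratios of few reads carry 95% exact binomial intervals on pooled reads, which cover counting error only. The test was tried on simulated counts for this comparison: of 199 changed genes among 11726 tested, 93.0% were recovered (83.3% of those changed by 0.5 log2), and 4.64% of calls were unchanged genes. Far fewer genes were changed there than the 71.1% that passed in the data, so these rates need not carry over.

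Members and lists were chosen with earlier results of these data known. Reads per library were given for called members changed by at least 0.5 log2, for the tested drug-efflux and peroxisomal members and for the 5 members with the most reads per kilobase, and members below the test with their reads by group. Each related list names the called genes that changed most, at most 3. Nr1h2, Nfe2l2, Tap2, Cftr, the overlapping genes and the remaining tested members were named besides. Alternatives were DESeq2 1.42.0, RLE factors, no filter, limma-voom (limma 3.58.1), a minimum of 10 reads in all libraries, a replicate block, thinning to the smallest library and leaving out each library. Mean chi-square values between replicates were 1.75 to 10.7, where sampling noise gives about 1, so no library copied another. Of 50 members, 38 had an entry among the RefSeq promoters. Some genes of the family and of the lists are counted but not reported here by name.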

Additional observations from a re-analysis of the deposited data

How the results depend on the processing

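Calls of single members kept their direction in every alternative run, and apart from Abca4 and Abcb6 all kept their side of the threshold. The median log2 fold change of the ABC genes, 0.21, was 0.023 with no filter, 0.11 with at least 10 reads in every library, 0.12 after thinning, 0.12 without Abca4 (0.1194, an alternative chosen after seeing the data), and 0.10 to 0.13 with a library left out, as the members tested changed from 21 to between 20 and 22 in the last case. With no filter, 1 drug-efflux gene was lower (Abcc5, adjusted p = 0.0117, edgeR, with 17 of its 22 reads in mock replicate 1), Abca8b was called (adjusted p = 0.0236), and the medians were 0.11 for drug-efflux, -0.69 for ABCE and ABCF genes and 0.0034 for peroxisomal genes, lower than over the 2 that passed the filter. The ABCE and ABCF median was -0.64 after thinning and -0.68 to -0.64 with a library left out, and the lipid and sterol median 0.35 to 0.45. With at least 10 reads in every library, 0 regulators and 1 peroxisomal oxidation gene were lower, since Nr1h3 and Ehhadh were then not tested. Lower sterol handling genes numbered 1 after thinning and 1 to 2 with a library left out, the 1 being without mock replicate 2.

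Same-numbered libraries did not deviate together (correlations of -0.030, -0.106 and -0.057). The numbers thus gave no sign of pairing, although 3 libraries per group cannot show that there was none. With the replicate block, 8034 genes passed against 8388, and 11 ABC genes were higher and 6 lower.

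The p140Cap libraries were shallower than the mock libraries, which limits members with few reads, and the groups' depth and treatment cannot be told apart.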
